A study of Mus musculus with 5 samples.

Results

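Gzmb-high, Gzmc-low cells were picked out of mouse lung type 2 innate lymphoid cells (ILC2s) that had been activated in culture, by 2 limits on their own granzyme RNA: at least 10 UMIs (unique molecular identifiers, each standing for 1 captured RNA molecule) of Gzmb and fewer than 20 of Gzmc per 10000 UMIs of the cell. Barcodes had to show 200 or more genes, with less than 5% of their UMIs from mitochondrial genes. The limits were met by 718 of 6717 such cells, 460 of 2895 in week 2 and 258 of 3822 in week 3, out of 16530 kept cells in the 5 libraries of the series. Within each library they were set against the cells without any Gzmb UMI, 1954 in week 2 and 3221 in week 3. Gzmb and Gzmc chose the cells, so their own levels are described here and not tested.

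The study profiled single sorted lung ILC2s (Lin- ST2+ CD127+ Thy1.2+ CD45+) on the 10x Genomics 3′ platform to follow how they change during tumour growth. All mice were female wild-type C57BL/6 animals aged 4 to 8 weeks, and 5 mice were pooled for each library. Naïve cells came from mice without a tumour. Tumour-associated (ta) cells came from mice 2 and 3 weeks after TC1 cells, a mouse lung tumour line, had been placed under the skin, and were sequenced fresh (ta-non-activated) or after being held for 7 days in medium containing 10 ng/mL each of IL-33, TSLP and human IL-2 (ta-activated). The deposited ta-activated matrices held 68919437 UMIs over 3579 barcodes in week 2 and 71126524 UMIs over 4405 barcodes in week 3, and the pair shared 1 barcode. Each time point is 1 library of 1 pool, so week 2 and week 3 stand in for replicates and the spread between them includes any effect of time, pool or culture. Depth was close between the classes: the median was 12460.5 UMIs in Gzmb-high, Gzmc-low cells against 13107 in cells without Gzmb in week 2, and 12484.5 against 12073 in week 3.

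Granzyme B is a serine protease stored with perforin in the granules of cytotoxic lymphocytes, and once inside a target cell it cleaves caspases and other substrates that set off apoptosis. Granzyme C is encoded by a neighbouring gene of the same family and is made mainly after strong or prolonged stimulation. ILC2s are better known as tissue-resident sources of IL-5 and IL-13 under the transcription factor GATA3, and they respond to IL-33 through its receptor ST2, the product of Il1rl1.

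Gzmb (ENSMUSG00000015437) lies on the reverse strand of chromosome 14 at 56258838 to 56262260 and Gzmc (ENSMUSG00000079186) at 56231441 to 56234656 (GRCm38, GENCODE M21). The 250 bases before the RefSeq start of each gene, which for Gzmb lies upstream of the GENCODE start just given, are shown because the 2 genes define the cells, and those of Isg15 because interferon-induced genes come up among the differences below (RefSeq sequences, GRCm38.p6, each on the strand of its gene, 5′ to 3′). Capitals mark TGTGGT, the core letters bound by Runx factors, or ACCACA, the same letters on the other strand, in the granzyme genes, and, in Isg15, the core of the interferon-stimulated response element, written here as GAAA, any 2 bases and GAAA again. Both motifs were searched on both strands.
Gzmb, chr14:56262335-56262584, reverse strand: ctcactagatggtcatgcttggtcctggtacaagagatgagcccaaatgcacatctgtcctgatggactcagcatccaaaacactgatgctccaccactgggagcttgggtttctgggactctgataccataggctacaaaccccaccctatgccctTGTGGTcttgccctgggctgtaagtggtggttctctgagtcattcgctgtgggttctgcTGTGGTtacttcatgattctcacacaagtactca
Gzmc, chr14:56234658-56234907, reverse strand: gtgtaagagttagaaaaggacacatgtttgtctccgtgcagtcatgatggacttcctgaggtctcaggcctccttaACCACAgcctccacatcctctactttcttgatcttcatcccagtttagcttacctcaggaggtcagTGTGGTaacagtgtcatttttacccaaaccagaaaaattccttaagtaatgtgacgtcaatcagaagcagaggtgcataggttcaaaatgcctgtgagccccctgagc
Isg15, chr4:156200819-156201068, reverse strand: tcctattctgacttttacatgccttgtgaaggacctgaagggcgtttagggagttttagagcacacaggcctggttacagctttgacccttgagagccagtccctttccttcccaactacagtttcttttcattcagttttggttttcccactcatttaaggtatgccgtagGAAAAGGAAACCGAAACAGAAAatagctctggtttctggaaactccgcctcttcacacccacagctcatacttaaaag
TGTGGT occurred 2 times upstream of Gzmb and once on each strand upstream of Gzmc, and 15.9% of the 27025 promoters of this length held it. The response element core occurred 3 times, overlapping, upstream of Isg15, against 3.46% of all promoters with at least 1 match. A match describes the letters in this window and is not evidence of a bound factor.

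Gzmb RNA was abundant in the chosen cells and spread widely among them. In week 2 the 460 cells held 60579 Gzmb UMIs, a level of 7996 CPM (UMIs of a gene scaled to 1000000 UMIs of the summed cells), and in week 3 the 258 cells held 20006 Gzmb UMIs, a level of 5450.3 CPM. The per-cell level ranged from 10.1 to 595 Gzmb UMIs per 10000 with a median of 51.7 in week 2, and from 10.0 to 254 with a median of 37.1 in week 3. In UMIs, the median cell held 68 of Gzmb in week 2 and 55 in week 3, and 1 cell in each library passed the limit on only 1 or 2 UMIs. Just under the limit, at 8 to 10 per 10000, stood 22 cells in week 2 and 16 in week 3, and just over it, at 10 to 12, stood 21 and 15 cells. No gap separated these groups. Cells with a trace of Gzmb were many: of the cells above 0 and under 5 per 10000, 232 of 358 in week 2 and 153 of 281 in week 3 held exactly 1 Gzmb UMI. These trace cells belong to neither class.

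Gzmc was nearly absent from the chosen cells, although the rule allows any level under 20 UMIs per 10000. No Gzmc UMI was found in 412 of the 460 cells of week 2 and 248 of the 258 of week 3, and a single cell, in week 3, lay between 10 and 20 Gzmc UMIs per 10000. Cells with both granzymes above their limits numbered 51 in week 2 and 0 of 3822 in week 3.

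Such cells formed 15.9% of the kept week 2 cells (95% Clopper-Pearson interval 14.6 to 17.3%) and 6.75% of the week 3 cells (5.98 to 7.59%). Before culture the same limits were met by 14 of 6389 naïve cells (0.219%), by 2 of 1823 ta-non-activated cells in week 2 (0.11%, interval 0.013 to 0.396%) and by 7 of 1601 in week 3 (0.437%, interval 0.176 to 0.899%). The fresh libraries from the naïve mice and week 3 were shallower, with medians of 4517 and 4396 UMIs per kept cell, and the week 2 library deeper, with 16090 UMIs. When every cell with at least 2000 UMIs was thinned to 2000, a Gzmb UMI was found in 22.3% of ta-activated cells in week 2 and 10.2% in week 3, against 0.716% of naïve cells and 0.221% and 1.94% of ta-non-activated cells in weeks 2 and 3. All these intervals cover counting error only, and the readout that chose the cells is not tested between libraries.

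**Figure D1:**
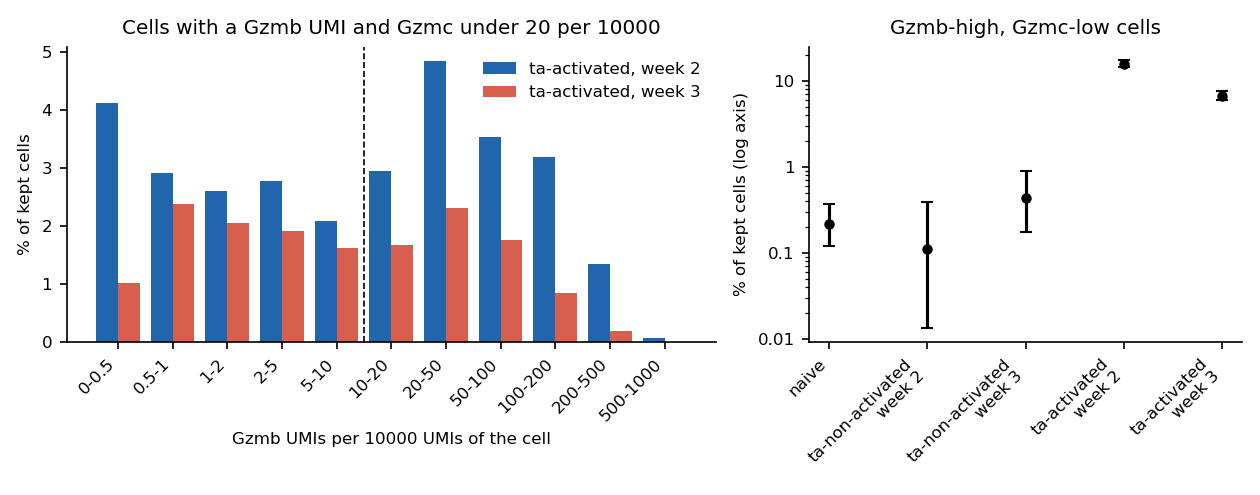
Left, the share of kept cells (%) at each level of Gzmb (UMIs per 10000 UMIs of the cell) in the ta-activated libraries of week 2 and week 3, for cells with a Gzmb UMI and fewer than 20 Gzmc UMIs per 10000, with the limit of 10 as a dashed line. Right, the share of Gzmb-high, Gzmc-low cells in each of the 5 libraries on a log axis with 95% Clopper-Pearson intervals. Levels run on through the limit without a gap, and the share lies at 15.9 and 6.75% after culture and under 0.5% in the 3 fresh libraries.

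Most markers of the ILC2 label were present. Gata3, the lineage factor of ILC2s, stood at 639 CPM in the Gzmb-high, Gzmc-low cells of week 2 and 1043 CPM in week 3, against 576 and 886 CPM in cells without Gzmb. These levels are of RNA in the droplets, and free RNA, whose share was not measured here, can add to them and to every share of cells with a UMI given below. Id2, which holds innate lymphoid cells back from a B or T cell fate, measured 1071 and 1527 CPM, and Il7r, the IL-7 receptor chain used in the sort, 699 and 727 CPM. Il1rl1, the other receptor used in the sort, was sparse, with a UMI in 3.10% and 13.3% of the cells after each had been thinned at random to 2000 UMIs. The defining markers of natural killer cells and ILC1s, lymphocytes well known for granzyme B, were at or near 0. Klrb1c, Tbx21, Ifng, Klra4, Klra8 and Klre1 had no UMI in any chosen cell, Ncr1 (the receptor NKp46) and Eomes had 0.132 and 0.264 CPM in week 2 and none in week 3, and the whole list of 16 genes summed to 82.6 CPM in week 2 and 39.2 in week 3, with Ccl5 as its most abundant gene, against 72.3 and 198 CPM in cells without Gzmb. Of the 5 genes of this list that could be tested, Cd7 was higher and Ccl5 lower in the test given below (background 2.38% higher, 2.94% lower). The median log2 difference of the 5 was 0.91, and it was -0.09 over 4 genes in cells with no Gzmc UMI and -0.39 over 3 by cells with a UMI. The 13 T cell markers summed to 576 against 562 CPM in week 2 and 406 against 573 CPM in week 3. Of these, Cd8a and Cd6 were at 0 and Cd3e, a chain of the T cell receptor complex, measured 3.70 CPM in week 2 and 0 in week 3. Trbc2, the constant segment of the T cell receptor beta chain, was the most abundant at 347 and 239 CPM, close to 298 and 248 CPM in cells without Gzmb, and none of the 8 that could be tested passed. The part of such cells in the differences below was not tested beyond these levels.

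The question the comparison answers is which other RNAs accompany Gzmb in the same culture. Counts were summed per library and class, and a quasi-likelihood F test in edgeR was fitted to the 4 sums with the library as a block. Of 11859 genes tested, 282 (2.38%) were higher and 349 (2.94%) lower in Gzmb-high, Gzmc-low cells at an adjusted p under 0.05, 5.32% in all, and 623 of these 631 had the same direction in both weeks. The fit has 1 residual degree of freedom and borrows the rest of its spread across genes, and without the block no gene passed (0 higher, 0 lower, and 371 at an unadjusted p under 0.05). The median log2 difference over all tested genes was -0.00.

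Among called genes with at least 50 CPM in both libraries of the higher class and the same direction in both weeks and in depth-matched cells, the largest positive difference was that of Ms4a4b, a four-pass membrane protein of T cells and innate lymphocytes. Larger fitted differences outside these limits, such as those of Gzma, Gzmf and Cd7, are given with their lists. Its level was 617 CPM (95% Poisson interval 599 to 635) in the Gzmb-high, Gzmc-low cells of week 2 against 202 (198 to 207) in cells without Gzmb, and 1192 against 418 CPM in week 3. The log2 difference was 1.60 ± 0.07 (SE, edgeR, adjusted p = 1.91e-07). The difference held in the number of cells too, since a Ms4a4b UMI was found in 47.2% against 23.6% of thinned cells in week 2 and in 74.5% against 41.7% in week 3. The reverse reading took all thinned cells of each library, trace cells included. Of these, Gzmb-high, Gzmc-low cells made up 28.2% of week 2 cells with a Ms4a4b UMI and 11.1% of those without. In week 3 they made up 11.9% and 2.78%. This count used a separate random thinning of the cells, so it does not match the shares above exactly. In it, 229 of 451 thinned Gzmb-high, Gzmc-low cells of week 2 and 198 of 255 of week 3 held a Ms4a4b UMI. Its relative Ms4a6b was also higher, at 398 against 183 CPM in week 2 and 699 against 453 CPM in week 3 (log2 difference 0.91 ± 0.10, adjusted p = 0.000466 by edgeR).

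Itgae, the integrin alpha E chain (CD103) that pairs with beta 7 to bind E-cadherin on epithelium, measured 139 CPM (130 to 147) against 62.0 (59.5 to 64.6) in week 2 and 160.2 CPM (148 to 174) against 62.4 (60.2 to 64.6) in week 3. The log2 difference was 1.30 ± 0.09 (edgeR, adjusted p = 1.64e-05). The partner chain gene Itgb7 was 226 against 184 CPM in week 2 and 92.1 against 92.9 CPM in week 3 and did not pass. Cd69, a lectin of recently stimulated and tissue-resident lymphocytes, was 247 against 122 CPM in week 2 and 305 against 175 CPM in week 3 (log2 difference 0.95 ± 0.08, adjusted p = 9.13e-05 by edgeR). Of the 12 tested adhesion and homing genes 4 were higher and 0 lower, against 2.38% and 2.94% of all tested genes: Itgae, Cd69, Itga2 (the collagen-binding alpha 2 integrin) and Ly6a (Sca-1), the most abundant of them at 7958 against 6578 CPM in week 2 and 5351 against 4599 in week 3. The list's median log2 difference was 0.18, which became 0.08 with depth-matched cells (3 higher), 0.11 without dividing cells (2 higher), 0.10 without the deepest 5% of cells (3 higher) and 0.07 by cells with a UMI (2 of 10 higher).

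Nampt, the rate-limiting enzyme of NAD salvage, was 342 against 183 CPM in week 2 and 202 against 102 CPM in week 3 (log2 difference 0.99 ± 0.08, adjusted p = 3.00e-05 by edgeR). Gdap10, listed higher as well (log2 difference 1.13 ± 0.11), is a non-coding gene that lies inside Nampt on the same strand (chromosome 12, 32821872 to 32826904 within 32819545 to 32853349), so its reads cannot be told apart from those of Nampt introns with certainty. Pglyrp2, a peptidoglycan amidase, was 121 against 70.4 CPM and 91.3 against 34.0 CPM (log2 difference 1.12 ± 0.13). The other genes named as higher were Sytl3, a Rab27-binding protein of secretory granules, Daam1, a formin, Gngt2, a G protein gamma chain, Tapbpl, a peptide editor of MHC class I, and Isg20, an interferon-induced exonuclease, with log2 differences from 0.75 to 0.91. Sytl3 and Daam1 differed less in week 2 (0.50 and 0.49 on the log2(CPM + 1) scale) than in week 3 (1.23 and 1.08), and both lost the call in 3 of the 12 alternatives that kept the block. Ms4a4b, Itgae, Gdap10, Pglyrp2, Nampt, Cd69 and Isg20 kept an adjusted p under 0.05 in all 12 alternatives that kept the block.

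**Figure D2:**
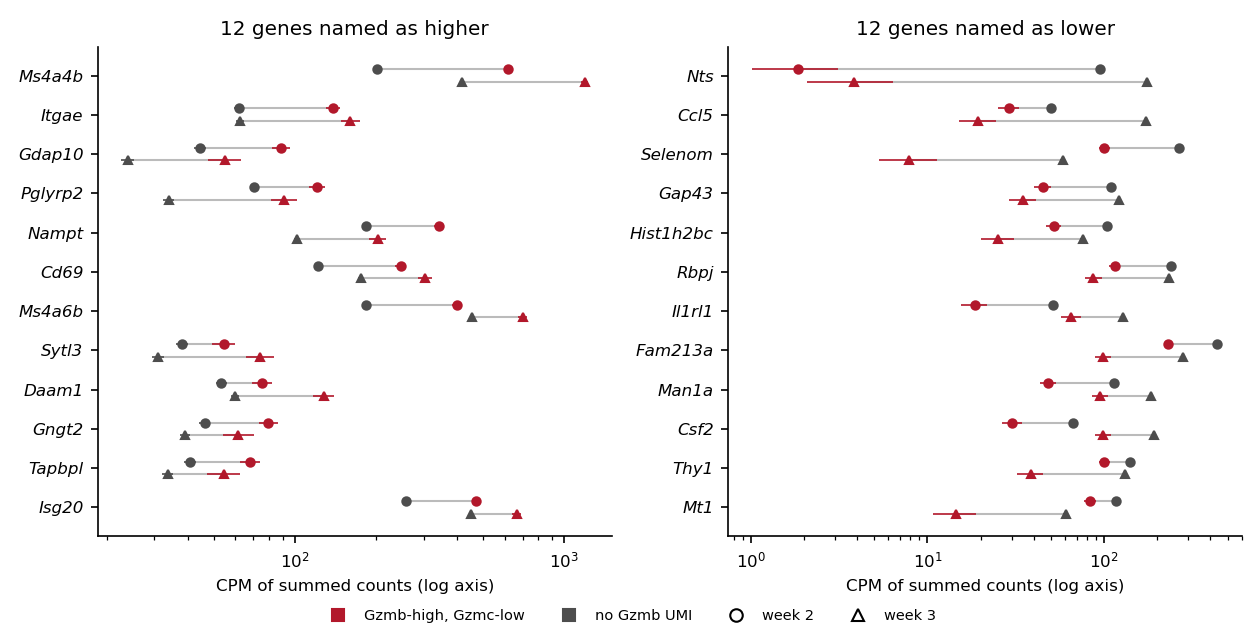
CPM of summed counts (log axis) for the 12 genes named as higher and the 12 named as lower, in Gzmb-high, Gzmc-low cells (red) and in cells without a Gzmb UMI (grey), with 95% Poisson intervals. Circles are week 2 and triangles week 3. Each pair differs in the same direction in both weeks, from 617 against 202 CPM for Ms4a4b in week 2 to 1.85 against 94.5 CPM for Nts in week 2.

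Among genes named as lower, Rbpj, the DNA-binding partner of Notch, was 115 CPM (107 to 122) against 239.8 (235 to 245) in week 2 and 86.9 CPM (77.6 to 97.0) against 233 (229 to 237) in week 3. The log2 difference was -1.19 ± 0.10 (edgeR, adjusted p = 5.74e-05), and a Rbpj UMI was found in 18.4% against 29.7% of thinned cells in week 2 and 12.9% against 31.2% in week 3. Il1rl1, which encodes ST2, was 18.5 against 51.7 CPM in week 2 and 64.8 against 129 CPM in week 3 (log2 difference -1.18 ± 0.12, adjusted p = 0.000287 by edgeR). In week 2, 5 cells held 53.6% of the Il1rl1 UMIs of the chosen cells. Thy1, the third sort marker, was 100.5 against 140.1 CPM and 38.4 against 131 CPM (log2 difference -0.99 ± 0.22, adjusted p = 0.0220 by edgeR), and the call was lost in 5 of the 12 alternatives. By week, Thy1 differed by -0.48 in week 2 and -1.75 in week 3 on the log2(CPM + 1) scale. Man1a, a Golgi mannosidase, was 47.9 against 114 CPM and 95.4 against 184 CPM (log2 difference -1.06 ± 0.10). Rbpj, Man1a and Csf2 kept their call in all 12 alternatives with the block.

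Some lower genes rested on few cells. Nts, the neurotensin precursor, was 1.85 against 94.5 CPM in week 2 and 3.81 against 175 CPM in week 3 (log2 difference -5.56 ± 0.16), but 5 cells held 96.5% of its 3569 UMIs in the week 2 cells without Gzmb and 63.3% of 9052 in week 3. Nts had no call in the depth-matched set (log2 difference -0.96, adjusted p = 0.216 by edgeR) and was too sparse to be tested by the number of thinned cells with a UMI. Ccl5, Selenom, Gap43, Il1rl1 and Mt1 lost the call when cells with a UMI were counted in place of UMIs. Of the 12 alternatives with the block, Mt1 lost its call in 8 and Selenom and Ccl5 in 5 each, and with depth-matched cells the log2 differences of Mt1 and Selenom were -0.09 and -0.20, against -0.99 and -1.74. By week, on the log2(CPM + 1) scale, Ccl5 differed by -0.79 in week 2 and -3.09 in week 3, Selenom by -1.39 and -2.73, and Mt1 by -0.48 and -2.00. Hist1h2bc and Fam213a, the remaining pair, had log2 differences of -1.20 and -1.15.

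Il5, Il13 and several other cytokine genes were lower in the sums. None of the 13 tested cytokine genes was higher and 7 were lower, where 2.38% and 2.94% of all tested genes were: Il5, Il9, Il13, Csf2, Il6, Lif and Tnf, with a median log2 difference of -0.54 over the list against -0.00 over all genes. Il13, which drives mucus production and smooth muscle responses, was 2705 CPM against 3869 in week 2 and 2799 against 4505 in week 3 (log2 difference -0.56 ± 0.06, adjusted p = 0.00018 by edgeR). Il5, the eosinophil growth factor, was 932 against 1416 CPM and 665 against 980.4 CPM (log2 difference -0.54 ± 0.06). Csf2, which encodes GM-CSF, was 30.2 against 67.1 CPM in week 2 and 98.3 against 192 CPM in week 3 (log2 difference -1.02 ± 0.10, adjusted p = 0.00013 by edgeR). Il4 was 43.7 against 39.1 CPM and 36.2 against 29.3 CPM and did not pass, and Areg, an epidermal growth factor ligand of tissue repair, was 1004 against 1158 CPM in week 2 and 1146 against 549 CPM in week 3, with no call. The list count depended on the setting: 1 gene was higher and 5 lower with depth-matched cells (median -0.21), 1 higher and 2 lower among 11 tested when cells with a UMI were counted (median -0.08), and 3 lower with DESeq2 and 4 without dividing cells, with 0 higher in both. For Il9, 5 cells held 78.7% of the UMIs of week 2 cells without Gzmb and 56.2% of week 3, and the depth-matched set gave the other sign.

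The Il13 difference appeared in the level per cell, while the shares of cells with an Il13 UMI were close. After thinning, an Il13 UMI was found in 72.7% of the Gzmb-high, Gzmc-low cells and 75.3% of cells without Gzmb in week 2, and in 85.5% and 83.8% in week 3. The median cell held 8.58 against 10.5 Il13 UMIs per 10000 in week 2 and 17.6 against 19.5 in week 3. The 95th percentile was 94.5 against 123 and 91.6 against 127. The 99th percentile was close in week 2, at 272 against 277, and was 133 against 223 in week 3. Cells with at least 100 Il13 UMIs per 10000 were 22 of 460 (4.78%) against 138 of 1954 (7.06%) in week 2, and 10 of 258 (3.88%) against 263 of 3221 (8.17%) in week 3. With cells counted in place of UMIs, the log2 difference of Il13 was 0.014. Csf2 differed in both respects, with a UMI in 2.22% against 6.29% of thinned cells in week 2 and 14.1% against 27.6% in week 3.

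Interferon-induced genes were shifted the other way. Of the 25 genes of this list, 12 were higher and 0 lower (background 2.38% higher), and the median log2 difference was 0.45, with all 25 above 0. Isg15, a ubiquitin-like modifier, was 1318 against 783 CPM in week 2 and 1973 against 1673 CPM in week 3 (log2 difference 0.53 ± 0.10, adjusted p = 0.00847 by edgeR). Isg20 was 469 against 257 CPM and 664 against 451 CPM (0.75 ± 0.08), and Irf7, the factor that amplifies interferon responses, was 341 against 202 CPM and 571 against 439 CPM (0.61 ± 0.09). Cxcl10, Oas1a, Oasl1, Oasl2, Ifi44, Ifit3b, Rtp4, Xaf1 and Zbp1 completed the 12. Ifit1 was 423 against 249.5 CPM in week 2 and 578 against 719 CPM in week 3, and did not pass. The summed list was 8111 against 5700 CPM in week 2 and 11624 against 10613 CPM in week 3, so the classes were closer in week 3. Per cell, the median of the summed list was 84.9 against 65.5 UMIs per 10000 in week 2 and 107 against 103 in week 3. The calls thinned out when dividing cells were left out (2 of 25), without the deepest 5% of cells (3) and when cells with a UMI were counted (3), and with depth-matched cells 7 passed with a median of 0.21.

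**Figure D3:**
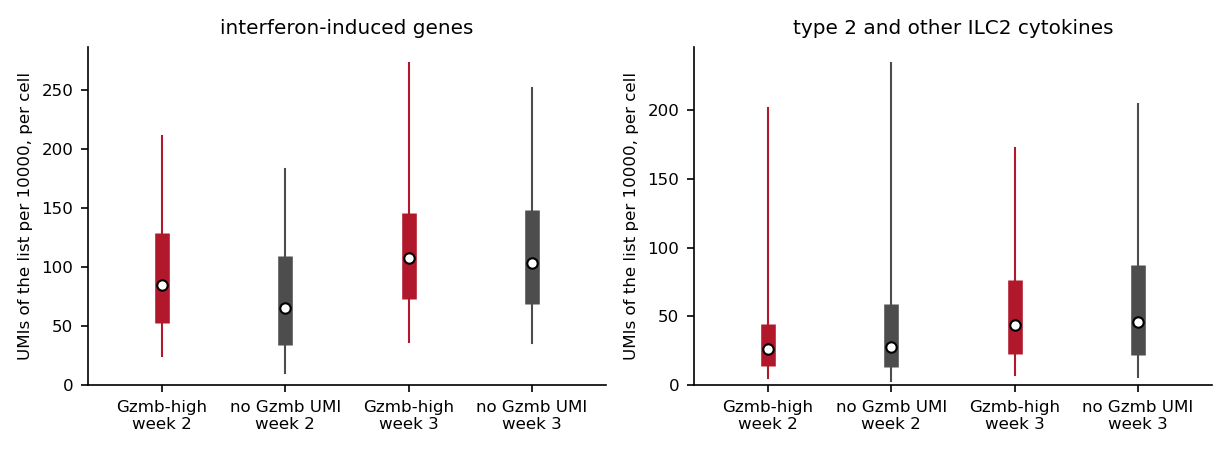
Summed UMIs per 10000 UMIs of a cell for the 25 interferon-induced genes (left) and the 14 cytokine genes (right), in Gzmb-high, Gzmc-low cells (red) and cells without a Gzmb UMI (grey) of weeks 2 and 3. White points are medians over cells, thick bars run from the 25th to the 75th percentile and thin lines from the 5th to the 95th. The interferon medians are 84.9 against 65.5 in week 2 and 107 against 103 in week 3, and the cytokine medians are close, at 26.1 against 27.7 and 43.3 against 45.7.

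Of the interferon list, 19 genes had a promoter sequence and 11 of these held the response element core (57.9%, against 3.46% of all promoters). Among the 12 called genes, 4 of the 10 with a sequence held it: Ifit3b, Isg15, Oas1a and Cxcl10. None of the 8 sequences found for the 12 genes named as higher held it. The related IFITM family of membrane proteins restricts virus entry. Of its 4 tested genes, Ifitm1 and Ifitm3 were higher and 0 lower (background 2.38% higher, 2.94% lower). The median log2 difference of the 4 was 0.08 and the smallest -0.59, with 2 above 0. Ifitm3 was 1074 against 818 CPM in week 2 and 778 against 674 CPM in week 3 (log2 difference 0.34 ± 0.07). Ifitm1 was 427 against 245 CPM and 125 against 94.7 CPM (0.65 ± 0.10). In week 3, 5 cells held 80.7% of the Ifitm1 UMIs of the chosen cells. None of the 3 tested passed without dividing cells or by cells with a UMI. With DESeq2 or at a Gzmb limit of 20, 1 of 4 passed. Without dividing cells Ifitm1 had a log2 difference of -0.10. Of the 11 class I presentation genes, Tap1, which carries peptides into the endoplasmic reticulum, and Psmb10, an immunoproteasome subunit, were higher and 0 lower (background 2.38% higher, 2.94% lower), while 4 of the 7 class II genes were lower, among them Cd74, the invariant chain, at 125 against 243 CPM in week 2 and 160.2 against 200 CPM in week 3. No class I gene passed with depth-matched cells (median log2 difference 0.06) or with DESeq2. Without dividing cells no gene of either list passed, and the class I median of 0.14 was 0.14 again. The class II median of -0.61 became -0.22 with depth-matched cells (3 lower), -0.46 without dividing cells (5 tested) and -0.17 by cells with a UMI (0 of 4 lower), and 2 were lower at a Gzmb limit of 20.

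Of the other granzymes and perforin, 3 genes could be tested, and Gzma and Gzmf were called higher and 0 lower (background 2.38% higher, 2.94% lower). Perforin (Prf1), the pore-forming partner of granzymes, was 8.32 against 4.87 CPM in week 2 and 3.81 against 1.10 CPM in week 3, at an adjusted p of 0.0602 by edgeR. With depth-matched cells or a mitochondrial limit of 10%, all 3 of Prf1, Gzma and Gzmf passed, but 1 of 3 did with DESeq2 and at Gzmb limits of 5 and 20, 1 of 2 without dividing cells, and 0 of 1 by cells with a UMI. Gzmd, Gzmg, Gzmk and Gzmn had no UMI in the chosen cells. Gzmf was called higher (log2 difference 3.20 ± 0.68) on 24 UMIs against 2 in week 2 and 11 against 41 in week 3, from 7575852 against 37753415 and 3670598 against 51858633 UMIs in all, within a family whose near-identical members can share reads. Gzma was called higher, but on 916 UMIs in 6 cells of week 2, of which 5 cells held 99.9%, and it had 0 UMIs in week 3. Of 14 genes for granule protection, processing and release, Serpinb6b and Nkg7 were higher and Stx11, a syntaxin of granule fusion, lower (background 2.38% higher, 2.94% lower). Nkg7 was higher in week 2 alone, at 17.8 against 4.56 CPM with 85.2% of its UMIs in 5 cells, and was 0.817 against 1.25 CPM in week 3. None of the 14 passed without dividing cells, with DESeq2 or when cells with a UMI were counted. Srgn, the proteoglycan that packs granzymes, was 1513 against 2019 CPM and 862 against 947 CPM and did not pass.

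Of the 19 tested ILC2 identity genes, 4 were higher and 3 lower, against 2.38% and 2.94% of all tested genes, with a median log2 difference of 0.07. Without dividing cells 0 were higher and 1 lower, and with depth-matched cells 2 were higher and 3 lower with a median of -0.06. Icos, a costimulatory receptor of ILC2s, was 1418 against 1156 CPM in week 2 and 1336 against 972 CPM in week 3 (log2 difference 0.41 ± 0.06, adjusted p = 0.00181 by edgeR). Crlf2, the TSLP receptor chain, was 165 against 116 CPM and 121 against 89.1 CPM (0.51 ± 0.09), Ptgdr2, the prostaglandin D2 receptor CRTH2, was 13.2 against 7.10 CPM and 13.1 against 3.84 CPM (1.29 ± 0.22), and Gata3 differed by 0.23 ± 0.06 (adjusted p = 0.0487 by edgeR). Il1rl1 and Thy1, given above, were among the lower. Rora, Id2, Bcl11b, Il7r, Il2ra and Klrg1 did not pass. Of the 16 genes of the IL-33 and NF-kB pathway, which acts below ST2, Nfkbiz alone was higher and 0 lower, 1 of 16 against a background of 2.38%. That call was lost with DESeq2, at Gzmb limits of 5 and 20, against all cells under the limit of 10, without dividing cells, without the deepest 5% of cells and when cells with a UMI were counted. Of the 19 genes of the IL-2 and STAT5 pathway, Gadd45g was higher and Stat5a, Socs2, Bcl2, Ccnd2 and Lta were lower (background 2.38% higher, 2.94% lower). The 5 lower calls became 4 with depth-matched cells, 3 and 2 at Gzmb limits of 5 and 20, 1 without the deepest 5% of cells, 1 with DESeq2, 1 by cells with a UMI and 0 without dividing cells, and the list's median was -0.06 and lay at -0.05 without dividing cells. Lta, which encodes lymphotoxin alpha, was 13.2 against 41.0 CPM in week 2 and 42.2 against 98.4 CPM in week 3.

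Chemokine receptors and chemokines split. Ccr2 and Cxcr6, receptors for inflammatory chemokines, were higher, with Ccr2 at 737 against 656 CPM in week 2 and 482 against 269 CPM in week 3 (log2 difference 0.54 ± 0.11) and Cxcr6 at 882 against 832 CPM and 881 against 645 CPM (0.30 ± 0.08). Ccr4, Ccr7 and S1pr1, receptors that guide lymphocytes to skin, lymph nodes and blood, were lower but sparse, with Ccr7 at 11 UMIs in 5 of the chosen cells of week 2. Of the 14 tested genes of this list, 5 were higher and 6 lower, against 2.38% and 2.94% of all tested genes. One of the 5, Cxcl2, was 37.5 against 11.8 CPM in week 2 and 0.272 against 1.14 CPM in week 3. With depth-matched cells 3 of 9 were higher and 1 lower, and the median turned from -0.72 to 0.12, while without dividing cells 0 of 11 passed and the median was -1.09. By cells with a UMI 1 of 7 was higher, with a median of 0.16. Among the 12 tested inhibitory and costimulatory receptors, Cd27, Tnfrsf9 and Tnfrsf1b were higher and Tnfrsf4 (OX40) and Pdcd1 (PD-1) lower (background 2.38% higher, 2.94% lower). Without dividing cells 2 of 10 were higher and 0 lower, and when cells with a UMI were counted 0 of 9 passed.

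Of 17 tested effector transcription factors, Irf8, Maf and Ikzf3 were higher and Irf4, Bhlhe40, Lef1, Zeb2 and Myb lower, against 2.38% and 2.94% of all tested genes. With depth-matched cells 1 of 15 was higher and 3 lower, and without dividing cells 0 of 15 passed, with a median log2 difference of -0.02 against 0.05. Ikzf3 (Aiolos) was 181 against 125 CPM in week 2 and 249.8 against 172 CPM in week 3 (log2 difference 0.58 ± 0.08), and Bhlhe40, a repressor that sustains cytokine output, was 25.2 against 42.9 CPM and 34.6 against 76.5 CPM (-0.91 ± 0.13). Runx3, Prdm1 and Batf, factors often linked to granzyme expression in T cells, did not pass: Runx3 was 116 against 109 CPM and 112 against 119 CPM. Tbx21, which drives type 1 lymphocyte programmes, had no UMI.

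**Figure D4:**
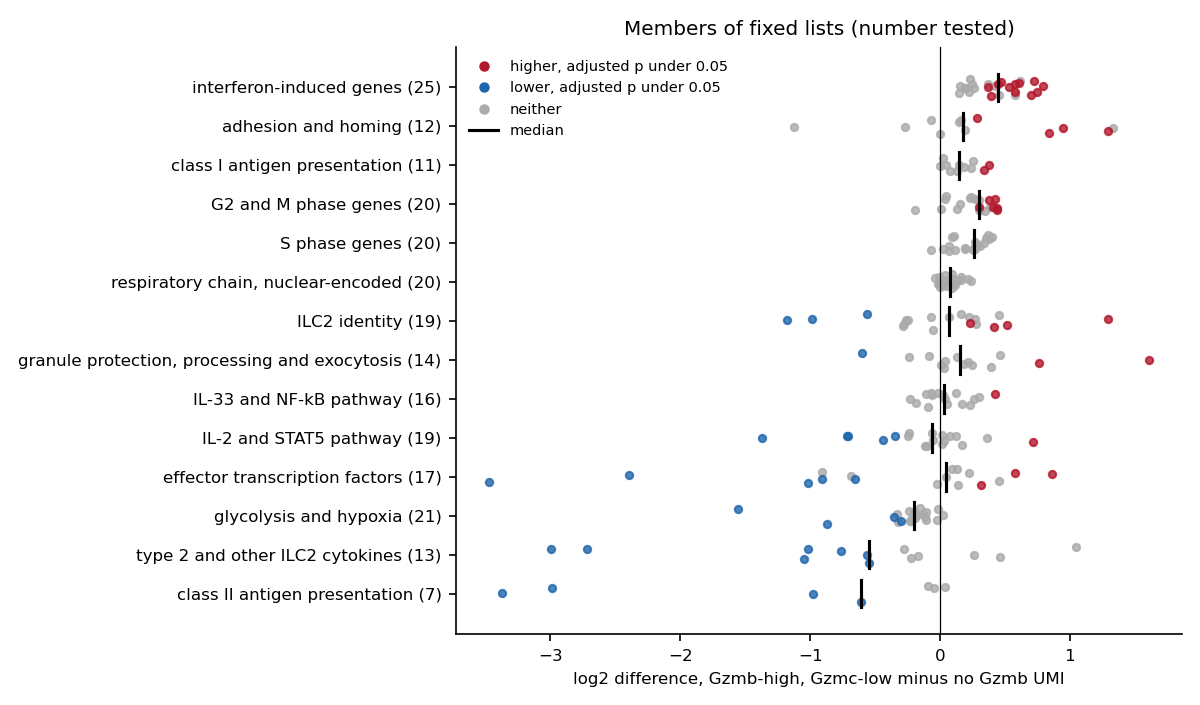
Log2 differences between Gzmb-high, Gzmc-low cells and cells without a Gzmb UMI, 1 point per tested gene, for 14 lists. Red points were higher and blue points lower at an adjusted p under 0.05, grey points passed in neither direction, and black bars are list medians. Interferon-induced genes lie to the right of 0 (median 0.45) and the cytokines mostly to the left (median -0.54), while the ILC2 identity list is centred at 0.07.

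Shares of dividing cells are given as values of 1 library each, with no test. After thinning, at least 2 of 12 cell-cycle genes were found in 23.7% of the Gzmb-high, Gzmc-low cells (interval 19.9 to 27.9%) and 21.3% of cells without Gzmb (19.5 to 23.3%) in week 2, and in 20.8% (16.0 to 26.3%) and 16.2% (15.0 to 17.6%) in week 3, so the share in Gzmb-high, Gzmc-low cells was the larger in both weeks and the counting intervals overlapped. In week 3 the shares were 28.7 against 22.4% when cells were thinned to 5000 UMIs. Of 20 G2 and M phase genes, 6 were higher and 0 lower (background 2.38% higher), and of 20 S phase genes none passed, with medians of 0.30 and 0.26. The 6 became 4 with depth-matched cells, 2 with DESeq2, 2 at a Gzmb limit of 20, 2 without the deepest 5% of cells and 0 when cells with a UMI were counted, with medians from 0.27 to 0.31 in these settings. Hmgb2, a chromatin protein of dividing cells, was 881 against 754 CPM and 943 against 661 CPM (log2 difference 0.41 ± 0.07). Of 21 glycolysis and hypoxia genes, Slc2a3, Hk2, Pgam1 and Pkm were lower and 0 higher, against 2.94% and 2.38% of all tested genes, with a median of -0.20. With depth-matched cells 1 was lower (median -0.09), and 0 were lower without dividing cells, where the median was still -0.21, or when cells with a UMI were counted, where it was -0.05. None of the 20 nuclear-encoded respiratory chain genes or the 16 genes of the unfolded protein response and secretion passed in either direction. Of 15 sterol and fatty acid synthesis genes, Idi1 and Scd2 were lower and 0 higher, against 2.94% and 2.38% of all tested genes, with a median of -0.17. Neither passed with DESeq2, and with depth-matched cells or without dividing cells 0 passed and the median turned to 0.03 and 0.08. Of 15 tested early response and stress genes, Nr4a1 and Rgs1, both induced soon after stimulation, were higher and Hsph1 and Atf3 lower (background 2.38% higher, 2.94% lower). With depth-matched cells or without dividing cells 1 of 12 was higher and 0 lower, and with DESeq2 or by cells with a UMI none passed. Of the 12 tested apoptosis genes, Cdkn1a alone was lower and 0 higher (background 2.94% lower), and 0 passed without dividing cells. Cdkn1a, a brake on the cell cycle, was 531 against 694 CPM and 385 against 641 CPM (-0.52 ± 0.09). The setting without dividing cells counted the 12 genes before thinning, and so dropped 209 of 460 and 115 of 258 chosen cells. It left 251 chosen cells with 2878002 UMIs in week 2 and 143 with 1573242 UMIs in week 3. Their median depths were 9129 and 10930 UMIs. In this setting 27 genes were higher and 40 lower, with 0 of the G2 and M phase genes among them. The part of fewer cells and lower depth in the calls lost was not tested.

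Among markers of other cell types a few genes differed. Mcpt8, a basophil protease that is also a granzyme-family relative, was 191 against 95.6 CPM in week 2 and 4.90 against 0.578 CPM in week 3 (log2 difference 1.26 ± 0.23), while Cpa3, Fcer1a, Ms4a2, Mcpt4 and Tpsb2 of the 8 mast cell and basophil markers were at 0 in the chosen cells. Of that list 2 genes could be tested, and Mcpt8 alone passed (background 2.38% higher, 2.94% lower). The 8 markers summed to 209.9 against 109 CPM in week 2 and 39.2 against 37.7 CPM in week 3. Of the ILC3 list, Ahr, a ligand-activated factor of barrier lymphocytes, was higher and Il22 lower, with Il17a and Il23r at 0 (4 tested, background 2.38% higher, 2.94% lower). Neither passed with depth-matched cells, without dividing cells, with DESeq2 or by cells with a UMI. Epcam was 33.8 against 18.0 CPM and 4.36 against 1.75 CPM (1.02 ± 0.16), while Sftpc, Krt8, Cldn5, Col3a1 and Scgb1a1 were at 0. Of these 10 epithelial, endothelial and stromal markers 3 could be tested, and Epcam alone passed (background 2.38% higher, 2.94% lower). Mcpt8 lost its call without dividing cells, at a Gzmb limit of 20 and with DESeq2, and Epcam without dividing cells and at a limit of 20. The part of such cells in these differences was not tested. Cd7 was 24.2 against 3.05 CPM and 4.36 against 1.48 CPM, with 5 cells holding 67.2% and 81.2% of its UMIs. The myeloid list summed to 3.43 and 2.18 CPM, with Lyz2, Csf1r and Itgam at 0, and the B cell list to 50.7 and 18.5 CPM, with Cd79a and Ms4a1 at 0 and Cd79b its most abundant gene.

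Along the levels of Gzmb, Ms4a4b in both weeks and Rbpj in week 2 changed in steps through the limit of 10. Some other genes did not. Ms4a4b in week 2 ran from 202 CPM in cells without Gzmb through 258 (over 0 to under 5 per 10000), 414 (5 to under 10), 524 (10 to under 20) and 557 (20 to under 40) to 671 CPM (40 or more). In week 3 it ran from 418 through 709.5, 861, 952 and 1163 to 1337 CPM. Rbpj ran down from 239.8 to 104 CPM in week 2. In week 3 it went from 233 to 67.4 CPM, with 96.8 CPM at 5 to under 10 and 117 CPM at 10 to under 20, the intervals of which overlapped. Itgae levelled off above 20 per 10000, at 148 and 143 CPM in week 2 and 167 and 165 CPM in week 3. Csf2 in week 2 followed no run: it was 10.1 CPM at 5 to under 10, 96.2 at 10 to under 20 and 12.8 at 20 to under 40, and 5 cells held 69.9% of the Csf2 UMIs of the chosen cells of that week. Il13 in week 2 followed no run, at 3869 CPM without Gzmb, 1923 at 5 to under 10 and 3783 at 10 to under 20. In week 3 Il13 ran from 4505 through 3729, 3284, 2572 and 3091 to 2755 CPM. Il5 in week 2 was 1416 CPM without Gzmb, 1458 at 10 to under 20 and 809 at 40 or more. Cd69 in week 2 was 276 CPM at 10 to under 20, 169 at 20 to under 40 and 269 at 40 or more. The lowest levels above 0 mix trace cells, mostly of 1 UMI, with others.

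**Figure D5:**
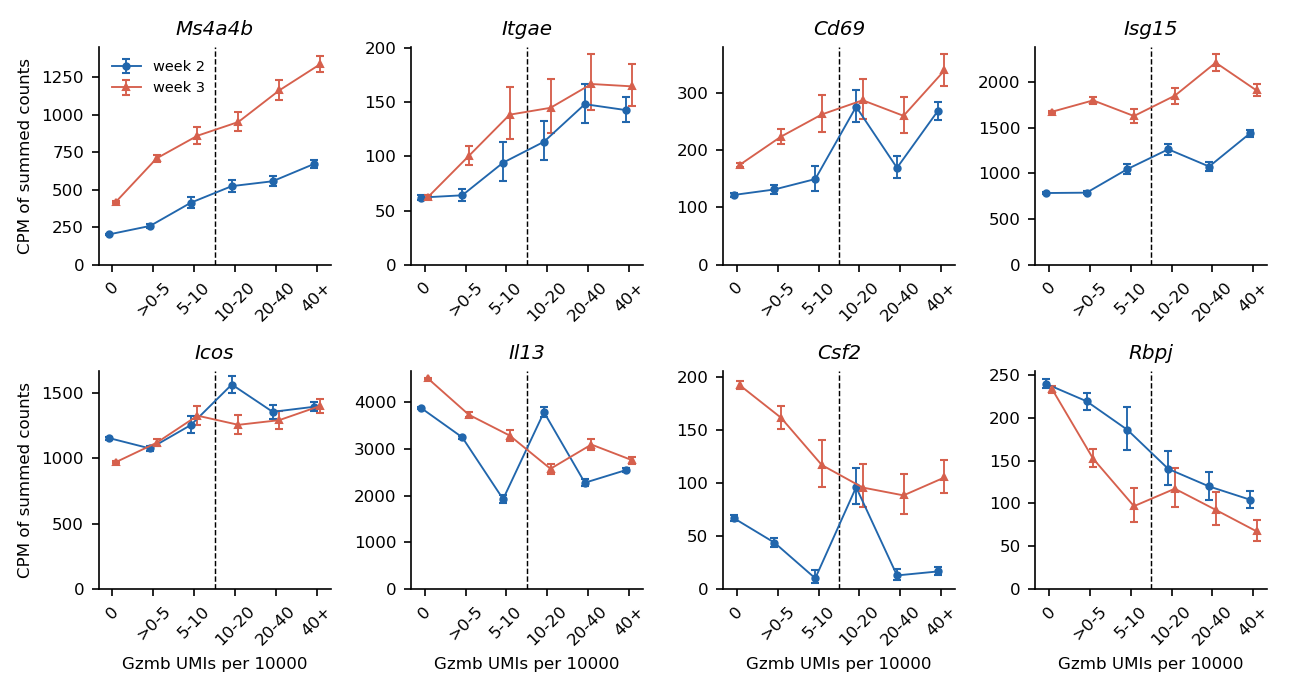
CPM of summed counts for 8 genes in cells grouped by Gzmb UMIs per 10000, in week 2 (blue circles) and week 3 (red triangles), with 95% Poisson intervals and the limit of 10 as a dashed line. Ms4a4b climbs from 202 to 671 CPM in week 2 and from 418 to 1337 CPM in week 3, Rbpj descends in week 2 and is lower at the highest Gzmb level than without Gzmb in week 3, with a rise from 96.8 to 117 CPM across the limit, and Csf2 has a single high value of 96.2 CPM at 10 to under 20 in week 2.

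The 68 week 2 cells at or above 20 Gzmc UMIs per 10000 had a partly different make-up, given as values of 1 library with no test. They held Klrd1 (CD94) at 428 CPM, Nkg7 at 415 CPM and Prf1 at 55.6 CPM, against 4.75, 17.8 and 8.32 CPM in the Gzmb-high, Gzmc-low cells of the same library, while Ms4a4b was 229 against 617 CPM and Gata3 175 against 639 CPM. Cd69 at 241 CPM and Itgae at 113 CPM lay above the 122 and 62.0 CPM of week 2 cells without Gzmb. In this they resembled the Gzmb-high, Gzmc-low cells. Their median depth was 21570 UMIs, above that of the other classes. Among the 68, 5 had no Gzmb UMI and so also stand in the class of cells without Gzmb. The 14 naïve cells that met both limits held other RNAs as well: a Cd3e UMI was found in 8 of them, Trac in 9, Nkg7 in 9 and Il13 in 1. Of the 7 ta-non-activated cells of week 3, 4 held Cd3e and none Il13, and of the 2 of week 2 neither held Cd3e and 1 held Il13.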

How the data were processed

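The authors aligned the reads with Cell Ranger and deposited raw UMI counts per gene and barcode without normalization. The matrix headers name Cell Ranger 6.0.0 for the naïve library and 3.0.2 for the other 4. The submitters' processing notes name Cell Ranger 3.0.2, Seurat 3 and GRCm38. Genes common to the 5 matrices (27726) were used. Libraries were grouped by GEO's titles.

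The members, lists and tests were chosen with earlier results of these data known. CPM values carry exact Poisson and shares exact Clopper-Pearson 95% intervals, for counting error only. Doublets were not called. The alternative without the deepest 5% of cells kept 454 of 460 and 256 of 258 chosen cells. It kept 1860 of 1954 and 3051 of 3221 cells without Gzmb. It therefore says little about doublets among the chosen cells. The main test (edgeR 4.0.16 in R 4.3.3, filterByExpr, TMM, quasi-likelihood F test, Benjamini-Hochberg threshold 0.05) had the library as block, since both classes of a library share mice and culture, and left out Gzmb and Gzmc. Each SE is the log2 difference over the root of F. On simulated data with 200 of 11859 genes changed, 43.0% of log2 changes of 0.58, 71.5% of 1 and 92.5% of 2 were recovered. False calls numbered 1, 4 and 11. The simulated counts followed the spread fitted to the data, so genes with most UMIs in a few cells were not simulated. Named genes are the 12 largest and 12 smallest log2 differences past the threshold, in the same direction in both weeks and the depth-matched set, with at least 50 CPM in both libraries of the higher class, together with members of the lists. Thinning used cells with at least 2000 UMIs, and each thinned share rests on a single random draw. The setting without dividing cells used counts before thinning. Python 3.11.15, numpy 2.4.6, scipy 1.17.1 and pandas 2.3.3 were used, and DESeq2 1.42.0 as an alternative. Some members of the lists are not reported here by name.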

Additional observations from a re-analysis of the deposited data

Results flagged for a closer look

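Of 631 called genes, 8 did not have the same sign in both weeks, and the difference between the weeks was not tested. The 3 of them that belong to the lists are given with their values. The other 5, chosen after their values were seen, were Cxcl3, Hamp and Wfdc2, higher in week 2 alone, Hao1, lower in week 2 alone, and Il24, with no UMI in either class of week 3. On the log2(CPM + 1) scale Gzma differed by 4.06 in week 2 and -0.25 in week 3, Nkg7 by 1.76 in week 2 and -0.31 in week 3, and Cxcl2 by 1.58 in week 2 and -0.75 in week 3. In week 2, 5 cells held 99.9% of the Gzma UMIs, 85.2% of the Nkg7 UMIs and 96.1% of the Cxcl2 UMIs of the Gzmb-high, Gzmc-low cells.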

How the results depend on the processing

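Of the 631 called genes, 598 kept their direction in every alternative that tested them. The 282 higher and 349 lower genes became 154 and 147 with depth-matched cells, 27 and 40 without dividing cells, 183 higher at a Gzmb limit of 5, 78 and 131 at a limit of 20, 102 and 147 without the deepest 5% of cells, 96 and 111 with DESeq2, 429 and 682 over all genes with at least 1 count, and 0 and 0 without the replicate block. Counting cells with a UMI after thinning in place of UMIs, an alternative chosen after seeing the data, gave 44 and 39. Over the members of the lists, 52 were higher and 43 lower, where 2.38% and 2.94% of all tested genes were. The counts over list members became 10 and 5 without dividing cells, 19 and 20 at a limit of 20, 29 and 25 without the deepest 5%, 26 and 20 with DESeq2, 10 and 5 by cells with a UMI, 0 and 0 without the replicate block, 24 lower when depth-matched and 67 lower over all genes. The cause of these shifts was not tested. The number of all genes tested changed with the setting too, from 9062 by cells with a UMI to 17250 with at least 1 count. Signs turned for Gzma (-1.36 with no Gzmc UMI), Nkg7 (-0.10) and Cxcl2 (-2.21) without dividing cells, Il9 (2.22, depth-matched), Il13 (0.014) and Il22 (1.003) by cells with a UMI, and, without dividing cells, Ifitm1 (-0.10), Birc5 (-0.035) and Idi1 (0.060). Leaving out a week gives a value for a gene but no count, since no test remains: by single week Gzma ranged from -0.25 to 4.06, Nkg7 from -0.31 to 1.76 and Cxcl2 from -0.75 to 1.58. Gzmb limits of 5 and 20 put the share of cells at 18.0 and 13.0% in ta-activated week 2, 8.37 and 5.08% in week 3, 0.423 and 0.0939% in naïve cells, 1.19% at 5 in fresh week 3 and 0% at 20 in fresh week 2. Dividing shares (Gzmb-high, Gzmc-low against no Gzmb) became 45.4 against 44.1% and 44.6 against 38.6% unthinned, 32.2 against 30.1% and 28.7 against 22.4% at 5000 UMIs, and 20.6 against 18.3% and 17.6 against 13.9% when 3 genes were required. Genes of a few CPM rest on few UMIs, since the chosen cells hold 7575852 and 3670598 UMIs in all.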
